A study of Homo sapiens with 18 samples.

Results

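The genes described are 9 that encode growth factor receptors with tyrosine kinase activity or their ligands, plus ERRFI1, which encodes an inhibitor of EGFR. They were chosen by symbol, with earlier results of these data known. KIT, EGFR, PDGFRA, PDGFRB, MET, AXL and FGFR1 are receptors, and KITLG and HBEGF are ligands. These 10 genes are 10 of the 78724 rows of the count table, and all 10 were among the 15558 genes with enough reads to test. RNA was measured in THESC, an established human endometrial stromal cell line, immortalised and then CRISPR-engineered to activate PGR, the progesterone receptor gene. NT cells carried a non-targeting guide and are labelled WT. U1U2 cells carried guides named U1U2 and are labelled as holding the receptor isoforms PGRA and PGRB in equivalent amounts, and promoter cells carried a promoter guide and are labelled PGRB-dominant. All 3 lines were grown with blasticidin, moved to low serum, and then kept for 72 hours in charcoal-stripped serum with vehicle (0.01% ethanol) or with 1 µM medroxyprogesterone acetate (MPA), a synthetic progestin. Each of the 6 groups holds 3 libraries. Whether a line is 1 clone or a pool is not given in the sources used here, and the same holds for whether replicates came from different cultures. The p-values therefore cover the spread of these samples alone, which can be technical.

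Receptor tyrosine kinases span the cell membrane. When their ligand joins receptor molecules in pairs, the kinase domains phosphorylate each other, and the phosphorylated tails recruit adaptors that pass the signal to RAS and the ERK kinase chain and to PI3 kinase and AKT. The signal is limited by inhibitors, several of them induced by the pathway itself: Sprouty proteins, dual-specificity phosphatases that act on ERK, CBL ubiquitin ligases that send receptors for degradation, and ERRFI1 (also called MIG6), which binds the kinase domain of EGFR and blocks it. In the mouse uterus ERRFI1 is known as a progesterone receptor target that limits oestrogen-driven growth. KIT, the receptor of stem cell factor (KITLG), is best known from mast cells, melanocytes and germ cells, and PDGFRA and PDGFRB mark stromal cells and pericytes.

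KIT and ERRFI1 carried the largest MPA changes among the 10 genes, in opposite directions, and so their upstream sequences are shown (RefSeq, build GRCh38.p14). The KIT sequence is chr4:54657707-54657917 on the plus strand, the 211 bases that end just before its transcripts. The ERRFI1 sequence is chr1:8026310-8026559 on the minus strand. Both read 5′ to 3′ along the gene, and capitals mark the GC box GGGCGG, a motif of SP and KLF factors.
KIT: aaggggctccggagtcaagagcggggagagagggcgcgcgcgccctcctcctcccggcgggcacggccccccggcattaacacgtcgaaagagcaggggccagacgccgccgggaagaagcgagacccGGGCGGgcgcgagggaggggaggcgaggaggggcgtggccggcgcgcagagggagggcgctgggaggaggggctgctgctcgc
ERRFI1: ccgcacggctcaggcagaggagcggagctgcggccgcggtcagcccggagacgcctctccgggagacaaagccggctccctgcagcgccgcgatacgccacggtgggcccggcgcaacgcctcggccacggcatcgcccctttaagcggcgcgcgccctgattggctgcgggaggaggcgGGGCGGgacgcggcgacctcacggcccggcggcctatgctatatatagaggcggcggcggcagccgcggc
The windows of 250 bases before the start held 76.4% G and C with 34 CpG dinucleotides for KIT and 75.2% with 39 for ERRFI1. The median over 35116 RefSeq promoter windows of that length was 58% with 11. Both strands were searched for 5 motifs. The GC box stood at position -122 from the RefSeq start in KIT and at -70 in ERRFI1, and 42.64% of all windows hold it. The steroid receptor motif AGAACA (12.39% of all windows), the FOX core GTAAACA (2.979%) and the AP-1 motif TGANTCA (6.573%) had no match in either window. The same held for the exact letters TATAAA of the TATA box (10.72%). Looser forms of the motifs were not searched, and the ERRFI1 sequence holds tatatata near its end. RefSeq windows were found for 9 of the 10 genes, 12 windows in all, and none of the 12 held AGAACA or GTAAACA. A match describes letters and is not a measured binding site.

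The 18 libraries held 11.9 to 33.4 M counts (median 22.9 M), and NT vehicle was the shallowest group, at 11.9 to 20.8 M. PGR was raised in both engineered lines: it stood at 140 ± 17.6 CPM (read counts scaled to library size with TMM factors, SD, n = 3) in NT vehicle, 596 ± 72.5 in U1U2 vehicle and 434 ± 40.1 in promoter vehicle. All 12 stromal markers had reads in every group, with a summed level between 11737 and 17376 CPM by library. Of the 12, edgeR's quasi-likelihood test (adjusted p under 0.05) called 0 higher and 2 lower with MPA in NT cells. It called 1 higher and 4 lower in U1U2 cells, and 1 higher and 3 lower in promoter cells. Of all tested genes, 2.44% were higher and 3.48% lower in NT, 5.44% and 6.22% in U1U2, and 6.63% and 8.4% in promoter cells. Promoter against NT cells had 0 higher, with 2 lower in vehicle and 3 in MPA, against 3.68% and 2.37% of all genes lower. The mast cell tryptases TPSAB1 and TPSB2 had 0 counts in all 18 libraries and CPA3 and the melanocyte gene TYR had at most 2. Of the 10 genes on the mast cell and melanocyte list, MITF alone stood high, at 63.7 to 129 CPM. The list's summed level ran from 109 to 130 CPM in NT vehicle, 69.4 to 110 in NT MPA, 78.2 to 104 in U1U2 vehicle, 64.6 to 80.8 in U1U2 MPA, 66.5 to 97.3 in promoter vehicle and 73.4 to 80.8 in promoter MPA. The summed level of 7 leukocyte markers was 3.83 to 5.86 CPM in the vehicle libraries and 1.54 to 2.42 CPM in the MPA libraries. PTPRC, the 1 of them with enough reads to test (33 to 143 counts), fell with MPA in all 3 lines, while CD3E and TYROBP were at 0. The 6 endothelial markers summed to 0.65 to 2.75 CPM, with CLDN5 at 0, and ESAM (8 to 74 counts), the 1 that could be tested, rose with MPA in U1U2 and promoter cells. The 8 epithelial markers summed to 19.9 to 57.5 CPM, KRT19 (6.88 to 33.9 CPM) and KRT18 (6.30 to 13.8 CPM) being the highest and EPCAM having 3 to 34 counts, and 2 of 5 tested, KRT19 and EPCAM, were lower with MPA in promoter cells. The 8 smooth muscle and pericyte markers, ACTA2 and TAGLN among them, summed to 747 to 1189 CPM in vehicle and 865 to 1333 CPM in MPA libraries, and 1 of 7 tested, MCAM, rose in NT cells. The part of these markers in the results that follow was not tested. In bulk RNA, fewer cells that express a gene and less RNA per cell cannot be told apart.

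Per kilobase of exon, the median level over the 18 libraries was highest for AXL (68.5 CPM per kilobase), then EGFR (38.3), PDGFRA (36.5), PDGFRB (35.1), ERRFI1 (33.5), MET (18.9), KIT (14.1), KITLG (11.4) and FGFR1 (10.2). HBEGF, at 2.61, was the lowest of the 10. The medians of ERRFI1 and KIT lie between their vehicle and MPA libraries, at levels that no library showed. ERRFI1 stood at 11.1 to 13.5 CPM per kilobase in the vehicle libraries and at 53.5 to 69.1 in the MPA libraries. KIT stood at 18.3 to 25.4 in the vehicle libraries and at 2.87 to 9.83 in the MPA libraries. ERRFI1 was thus below KIT in vehicle and above it in MPA. The ratio between the highest and the lowest group mean was 8.19 for KIT and 5.13 for ERRFI1. It was between 1.15 (EGFR) and 1.87 (HBEGF) for the other 8.

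MPA lowered KIT and raised ERRFI1 in all 3 lines, and moved other members of the set by less than 2-fold. Each gene was tested with edgeR's quasi-likelihood test over all 15558 genes and called at a Benjamini-Hochberg adjusted p under 0.05. In NT cells 2 of the 10 genes were called higher (ERRFI1 and MET) and 1 lower (KIT), where 2.44% of all tested genes were called higher and 3.48% lower. In U1U2 cells 2 were higher (ERRFI1 and MET) and 2 lower (KIT and HBEGF), against 5.44% and 6.22% of all genes. In promoter cells 2 were higher (ERRFI1 and PDGFRA) and 3 lower (KIT, KITLG and HBEGF), against 6.63% and 8.4%. The median log2 fold change of the 10 genes was 0.05, -0.04 and -0.05 in the 3 lines, beside 0.02, 0.03 and -0.00 over all genes. Without NT vehicle replicate 1, 2 genes in place of 1 were lower in NT cells, since KITLG (log2 fold change -0.45, adjusted p = 0.0212) was then called.

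**Figure D1:**
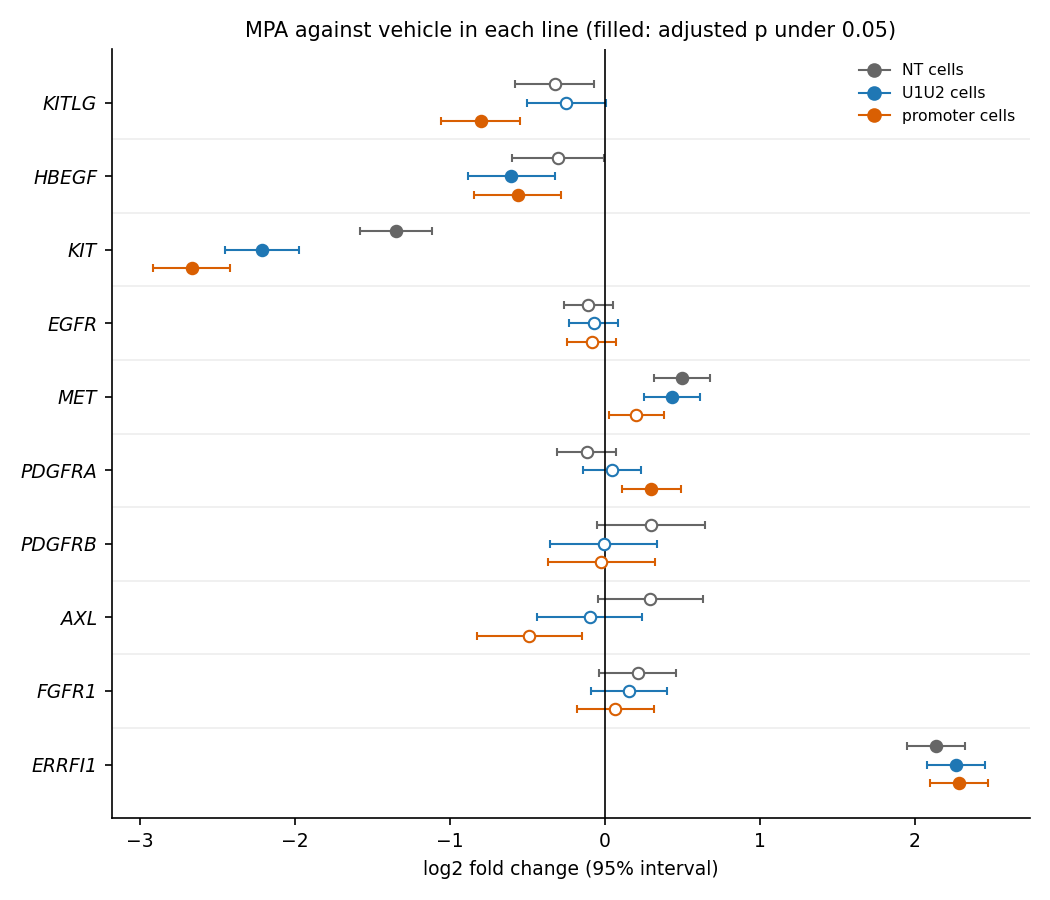
The log2 fold change of each of the 10 genes (rows), MPA against vehicle, is plotted for NT, U1U2 and promoter cells with its 95% interval; filled points have an adjusted p under 0.05. KIT lies at -1.35 to -2.67 and ERRFI1 at 2.14 to 2.29, and every other point lies between -0.80 and 0.50.

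Of the ligands, KITLG encodes stem cell factor, the ligand of KIT. In vehicle it stood at 72.5, 96.1 and 99.4 CPM in NT cells, 73.9, 59.1 and 70.8 in U1U2 cells and 90.6, 110 and 95.7 in promoter cells. With MPA it stood at 79.2, 65.0 and 70.5 CPM in NT cells, 61.7, 58.7 and 51.4 in U1U2 cells and 57.3, 55.7 and 56.6 in promoter cells. Vehicle and MPA libraries overlapped in NT and in U1U2 cells and stood apart in promoter cells. KITLG fell in promoter cells, by 0.80 ± 0.12 on the log2 scale (SE, adjusted p = 0.000109), the same direction as its receptor. Its changes in NT (-0.32 ± 0.12, adjusted p = 0.153) and U1U2 cells (-0.25 ± 0.12, adjusted p = 0.227) did not pass the test. The difference between the promoter and NT responses, -0.48 ± 0.17, did not pass either (adjusted p = 0.22).

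HBEGF encodes a membrane-anchored EGF-like growth factor that binds EGFR once released. It was sparse, with 92 to 464 reads a library. In vehicle it stood at 8.54, 7.91 and 6.42 CPM in NT cells, 10.2, 10.9 and 10.1 in U1U2 cells and 12.2, 9.60 and 12.9 in promoter cells. With MPA it stood at 6.23, 6.01 and 6.33 CPM, at 6.47, 6.29 and 7.74, and at 7.87, 7.53 and 8.26 in the same order of lines. Every MPA library lay below every vehicle library of its own line. HBEGF fell by 0.60 ± 0.13 in U1U2 cells (adjusted p = 0.00505) and by 0.56 ± 0.13 in promoter cells (adjusted p = 0.00655) on the log2 scale, whereas the NT value, -0.30 ± 0.14, did not pass (adjusted p = 0.289). None of the 3 differences between lines in this response passed, with adjusted p between 0.514 and 1.

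Of the receptors, KIT fell most. In vehicle it stood at 102, 125 and 131 CPM in NT cells, 125, 141 and 141 in U1U2 cells and 107, 104 and 105 in promoter cells. With MPA it stood at 41.6, 44.5 and 54.7 CPM in NT cells, 32.8, 28.2 and 27.0 in U1U2 cells and 17.5, 16.0 and 16.3 in promoter cells. No MPA library of any line reached the lowest vehicle library, and the MPA libraries of the 3 lines did not overlap each other. KIT was 2.55-fold lower with MPA in NT cells (log2 fold change -1.35 ± 0.11, adjusted p = 2.7e-07), 4.63-fold lower in U1U2 cells (-2.21 ± 0.11, adjusted p = 2.96e-10) and 6.35-fold lower in promoter cells (-2.67 ± 0.12, adjusted p = 2.62e-11). Mast cell tryptases at 0 and MITF at -0.39 ± 0.15, -0.21 ± 0.15 and -0.00 ± 0.15 (log2 fold change with MPA in NT, U1U2 and promoter cells, none called) stood beside these changes. Of the 10 mast cell and melanocyte genes 3 could be tested, with medians of -0.24, -0.21 and -0.00 and none called. In each line 1 of the 3 was lower at an unadjusted p under 0.05 by edgeR's quasi-likelihood test. The part of such cells in the fall of KIT was not tested.

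The fall of KIT differed between lines. Relative to the NT response, the log2 fold change differed by -1.32 ± 0.16 in promoter cells (adjusted p = 0.000191), a difference that was called in all 25 alternative analyses. In U1U2 cells it differed by -0.86 ± 0.15 (adjusted p = 0.0225). That call was lost, with adjusted p between 0.0543 and 0.103, when any of 8 libraries was left out: NT vehicle replicate 2, NT MPA replicates 2 and 3, U1U2 vehicle replicates 2 and 3, U1U2 MPA replicates 2 and 3, or promoter MPA replicate 3. Fitted on the 4 groups concerned alone, its adjusted p was 0.206. Promoter and U1U2 responses differed by -0.45 ± 0.16 (95% interval -0.78 to -0.13), which did not pass (adjusted p = 0.611). The 3 differences share libraries and so are not independent. In these response contrasts KIT was the only 1 of the 10 genes called for U1U2 minus NT, and it was lower. Of all genes, 0.0707% were called lower and 0.148% higher there. KIT was likewise the only 1 of the 10 called for promoter minus NT, also lower, against 0.752% of all genes lower and 0.803% higher. None of the 10 was called for promoter minus U1U2 by edgeR's quasi-likelihood test or by DESeq2, where 2 had an unadjusted p under 0.05 and 0.00643% of all genes were called in each direction.

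**Figure D2:**
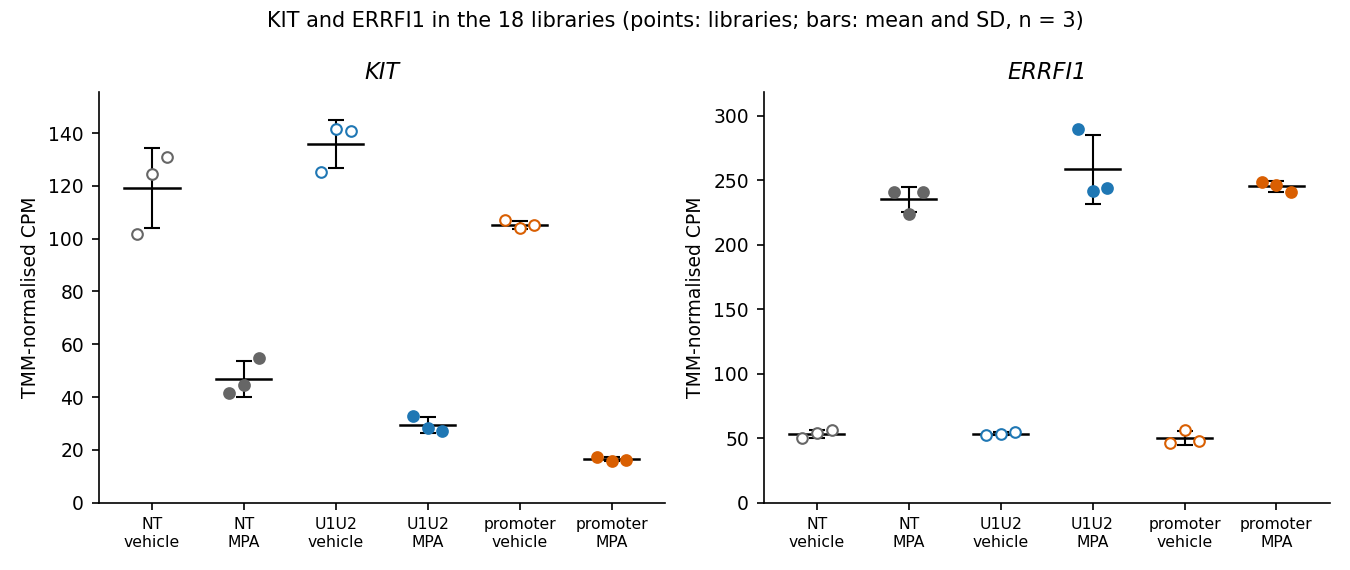
KIT (left) and ERRFI1 (right) in TMM-normalised CPM are plotted for each library by group; open points are vehicle, filled points MPA, and bars give the mean and SD of 3 libraries. KIT runs from a mean of 136 in U1U2 vehicle down to 16.6 in promoter MPA, and ERRFI1 from 50.3 in promoter vehicle up to 258 in U1U2 MPA.

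Ordered by level, KIT was highest in U1U2 vehicle (136 ± 9.08 CPM, SD, n = 3), then NT vehicle (119 ± 15.2) and promoter vehicle (105 ± 1.52), and neighbours in this order overlapped. NT MPA (46.9 ± 6.89), U1U2 MPA (29.3 ± 3.05) and promoter MPA (16.6 ± 0.82) followed, with no overlap between neighbours. In vehicle no pair of lines passed the test for KIT: the largest gap, promoter against U1U2, was -0.37 ± 0.11 with no overlap of libraries (adjusted p = 0.164). In MPA all 3 pairs passed: U1U2 against NT at -0.67 ± 0.11 (adjusted p = 0.00194), promoter against NT at -1.50 ± 0.11 (adjusted p = 1.82e-07) and promoter against U1U2 at -0.82 ± 0.11 (adjusted p = 0.00157). Fitted on its own 2 groups, U1U2 against NT in MPA missed the threshold (adjusted p = 0.0735).

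MET encodes the receptor of hepatocyte growth factor (HGF). MET in vehicle stood at 90.0, 95.3 and 93.9 CPM in NT cells, 107, 109 and 108 in U1U2 cells and 150, 142 and 125 in promoter cells. With MPA it stood at 126, 121 and 149 CPM, at 146, 151 and 141, and at 149, 167 and 165 in the same order of lines. MPA libraries lay above all vehicle libraries of their line in NT and U1U2 cells, while in promoter cells the lowest MPA library lay within the vehicle range. MET rose by 0.50 ± 0.09 on the log2 scale in NT cells (adjusted p = 0.00103) and by 0.44 ± 0.09 in U1U2 cells (adjusted p = 0.0018), and the promoter value was 0.20 ± 0.08 (adjusted p = 0.125). The promoter minus NT difference in response was -0.29 ± 0.12, which did not pass (adjusted p = 0.286). Already in vehicle, MET was 1.49-fold higher in promoter than in NT cells (0.58 ± 0.09, adjusted p = 0.000572).

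PDGFRA, the receptor of PDGF-A and related dimers, went the other way between lines. Vehicle libraries held it at 428, 451 and 446 CPM in NT cells, 311, 303 and 321 in U1U2 cells and 288, 309 and 272 in promoter cells. MPA libraries held it at 415, 374 and 432 CPM, at 375, 296 and 295, and at 361, 351 and 359. Both engineered lines lay below every NT library in vehicle, by 0.50 ± 0.09 (log2, lower in U1U2, adjusted p = 0.0129) and 0.61 ± 0.09 (lower in promoter, adjusted p = 0.000572). The U1U2 call was lost without NT vehicle replicate 2 (adjusted p = 0.0979) or U1U2 vehicle replicates 2 or 3 (adjusted p = 0.113 and 0.0676), and the promoter call was kept in every alternative. With MPA, PDGFRA rose in promoter cells by 0.30 ± 0.09 (adjusted p = 0.029). That call was lost when any promoter library other than promoter vehicle replicate 2 was left out (adjusted p between 0.0719 and 0.104), which leaves 1 of the 10 genes higher. NT (-0.12 ± 0.09, adjusted p = 0.565) and U1U2 cells (0.05 ± 0.09, adjusted p = 0.809) showed no called change. PDGFRA shares 1533 exon bases with the annotated gene AC058822.1 on the same strand, so the authors' counting could have split their reads.

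AXL, a receptor of the TAM family that binds GAS6, had the largest SD in CPM of any group among these genes, in promoter vehicle (474 ± 97.6 CPM, SD, n = 3). In vehicle it stood at 341, 295 and 308 CPM in NT cells, 343, 456 and 459 in U1U2 cells and 529, 532 and 361 in promoter cells. With MPA it stood at 319, 365 and 474 CPM, at 456, 341 and 378, and at 345, 333 and 337. The 3 MPA libraries of promoter cells lay below the 3 vehicle libraries, one of which was near them, while in NT and U1U2 cells the treatments overlapped. The change in promoter cells, -0.49 ± 0.16, just missed the threshold (adjusted p = 0.0516). It was called without promoter vehicle replicate 3 (-0.64, adjusted p = 0.00900), NT MPA replicate 1 (adjusted p = 0.0483) or 3 (adjusted p = 0.0306), U1U2 vehicle replicate 1 (adjusted p = 0.0406) or U1U2 MPA replicate 1 (adjusted p = 0.0424). In vehicle AXL was 1.51-fold higher in promoter than in NT cells (0.59 ± 0.16, adjusted p = 0.0348). That call did not survive leaving out NT vehicle replicate 2 or 3, promoter vehicle replicate 1 or 2, or promoter MPA replicate 3 (adjusted p between 0.0524 and 0.195).

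EGFR, PDGFRB and FGFR1 passed the test in none of the 12 contrasts. EGFR, the receptor that ERRFI1 blocks and HBEGF activates, stayed between 441 and 547 CPM in all 18 libraries, and its MPA values were -0.11 ± 0.07, -0.07 ± 0.07 and -0.08 ± 0.07 in NT, U1U2 and promoter cells. The 95% intervals of those values ran from -0.26 at the lowest to 0.09 at the highest. PDGFRB, the other PDGF receptor, ran from 204 to 327 CPM with replicates of 1 group as far apart as 204 and 302 (NT vehicle), so that its MPA intervals were wide, from -0.37 to 0.65 over the 3 lines. FGFR1, a receptor of fibroblast growth factors, ran from 121 to 179 CPM, and its MPA values were 0.21 ± 0.12, 0.16 ± 0.12 and 0.07 ± 0.12. PDGFRB and FGFR1 varied together between libraries (Pearson r = 0.87 of log2 CPM over the 18 libraries, which share preparation and depth), more than any other pair of the 10 in the same direction.

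**Figure D3:**
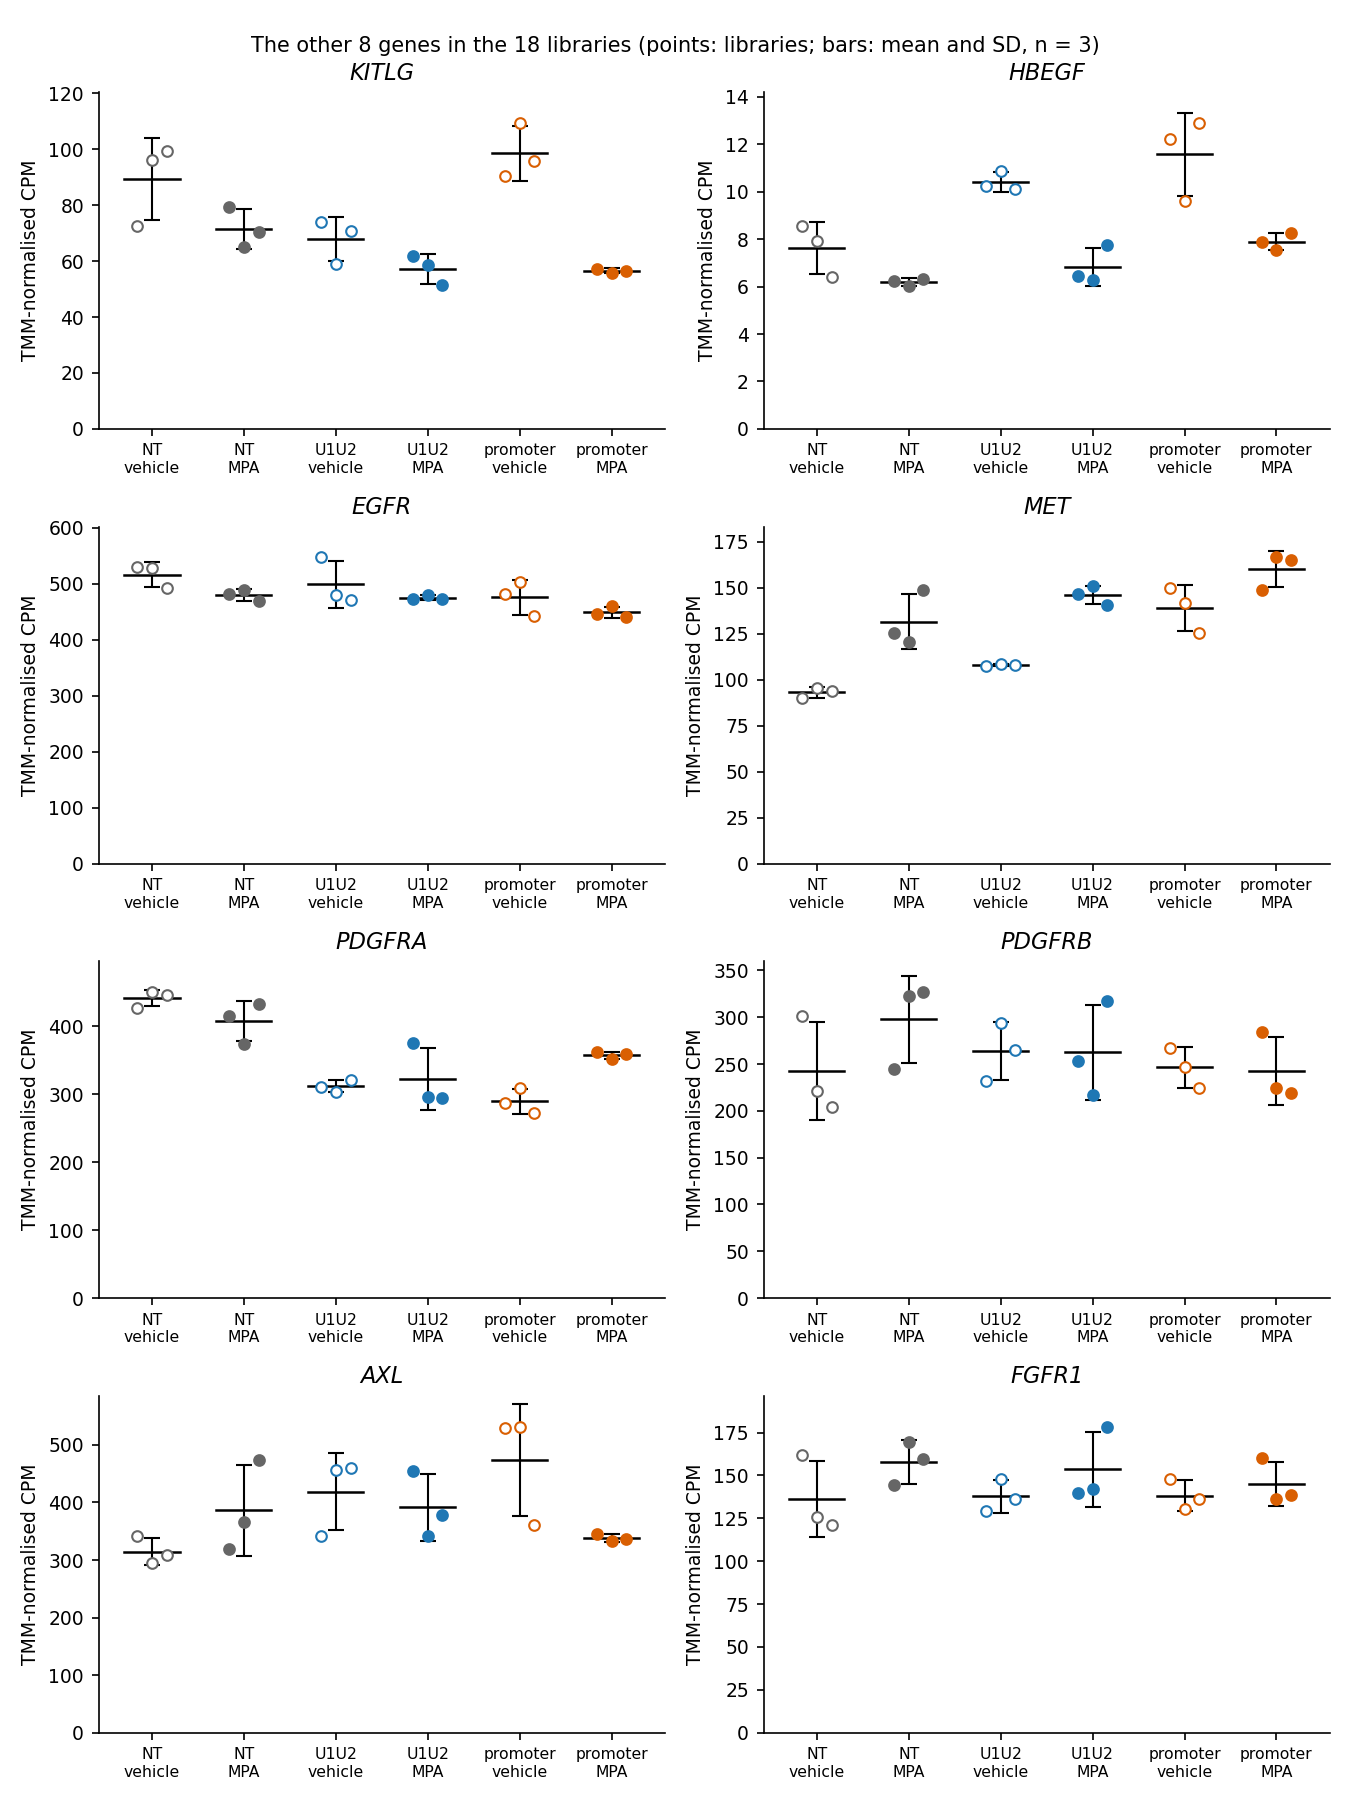
The 8 other genes are plotted by library and group in TMM-normalised CPM, each on its own axis from 0; open points are vehicle, filled points MPA, bars the mean and SD of 3 libraries. In NT and U1U2 cells every MPA library lies above every vehicle library for MET and below for HBEGF, EGFR stays between 441 and 547, and AXL and PDGFRB show replicates that spread over most of the range of all groups.

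ERRFI1, the inhibitor, was the member with the largest rise. In vehicle it stood at 49.9, 54.0 and 56.1 CPM in NT cells, 52.6, 53.5 and 54.8 in U1U2 cells and 46.5, 56.4 and 48.2 in promoter cells. The MPA libraries stood at 240.5, 224 and 241 CPM in NT cells, 289, 241 and 244 in U1U2 cells and 248, 246 and 241 in promoter cells. All 9 MPA libraries lay far above all 9 vehicle libraries, and within each treatment the lines lay close together. ERRFI1 rose 4.4-fold in NT cells (2.14 ± 0.09, adjusted p = 4.95e-11), 4.81-fold in U1U2 cells (2.27 ± 0.09, adjusted p = 1.26e-11) and 4.88-fold in promoter cells (2.29 ± 0.09, adjusted p = 7.7e-12). No pair of lines passed the test in vehicle or in MPA. The responses differed by 0.13 (95% interval -0.13 to 0.38) for U1U2 minus NT, 0.15 (-0.11 to 0.40) for promoter minus NT and 0.02 (-0.24 to 0.27) for promoter minus U1U2, on the log2 scale. These intervals leave room for a line difference of up to 0.40, where that of KIT between promoter and NT cells was -1.32. An antisense gene shares 155 exon bases with ERRFI1, and the strand setting of the counting is not given in the sources used here.

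Lines were also compared at the same treatment; the comparisons share libraries, so their values are given side by side. In vehicle, U1U2 against NT called 1 of the 10 genes, PDGFRA, lower, against 0.713% of all genes lower and 0.431% higher. Promoter against NT called 3 higher (HBEGF, AXL and MET) and PDGFRA lower, against 3.07% and 3.68% of all genes. HBEGF was higher by 0.61 ± 0.14 on the log2 scale (adjusted p = 0.00986), lost without NT vehicle replicate 3 (adjusted p = 0.0596) or promoter vehicle replicate 1 (adjusted p = 0.0574). Promoter against U1U2 called KITLG alone, higher by 0.54 ± 0.12 (adjusted p = 0.0433), against 0.527% of all genes higher and 0.257% lower. Among the 24 alternatives without a replicate term, the KITLG call was lost in 17, and it was also lost with that term. The 17 included leaving out any of 15 of the 18 libraries (adjusted p up to 0.251). The call was kept without NT vehicle replicate 1, NT MPA replicate 3 or U1U2 MPA replicate 1. Leaving out 1 library also moved the count lower in U1U2 against NT to 2 (without NT vehicle replicate 1) or 0 (without NT vehicle replicate 2 or U1U2 vehicle replicate 2 or 3). It moved the count higher in promoter against NT to 1 (without NT vehicle replicate 3 or promoter vehicle replicate 1), and the count higher in promoter against U1U2 to 2 (without NT MPA replicate 3).

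In MPA, KIT was the 1 gene of the 10 called in each pair of lines, always lower in the line named first. Of all genes, 0.938% were lower and 0.784% higher in U1U2 against NT, 2.37% lower and 1.77% higher in promoter against NT, and 0.135% lower and 0.193% higher in promoter against U1U2. PDGFRA in U1U2 against NT cells (-0.34 ± 0.09, adjusted p = 0.0741) was called as a second gene without U1U2 MPA replicate 1 (adjusted p = 0.00485). MET in promoter against NT cells (0.29 ± 0.09, adjusted p = 0.0747) was called without NT MPA replicate 3 (adjusted p = 0.0158). The AXL response, promoter minus NT (-0.78 ± 0.23, adjusted p = 0.11), was called without promoter vehicle replicate 3 (-0.93, adjusted p = 0.0316).

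**Figure D4:**
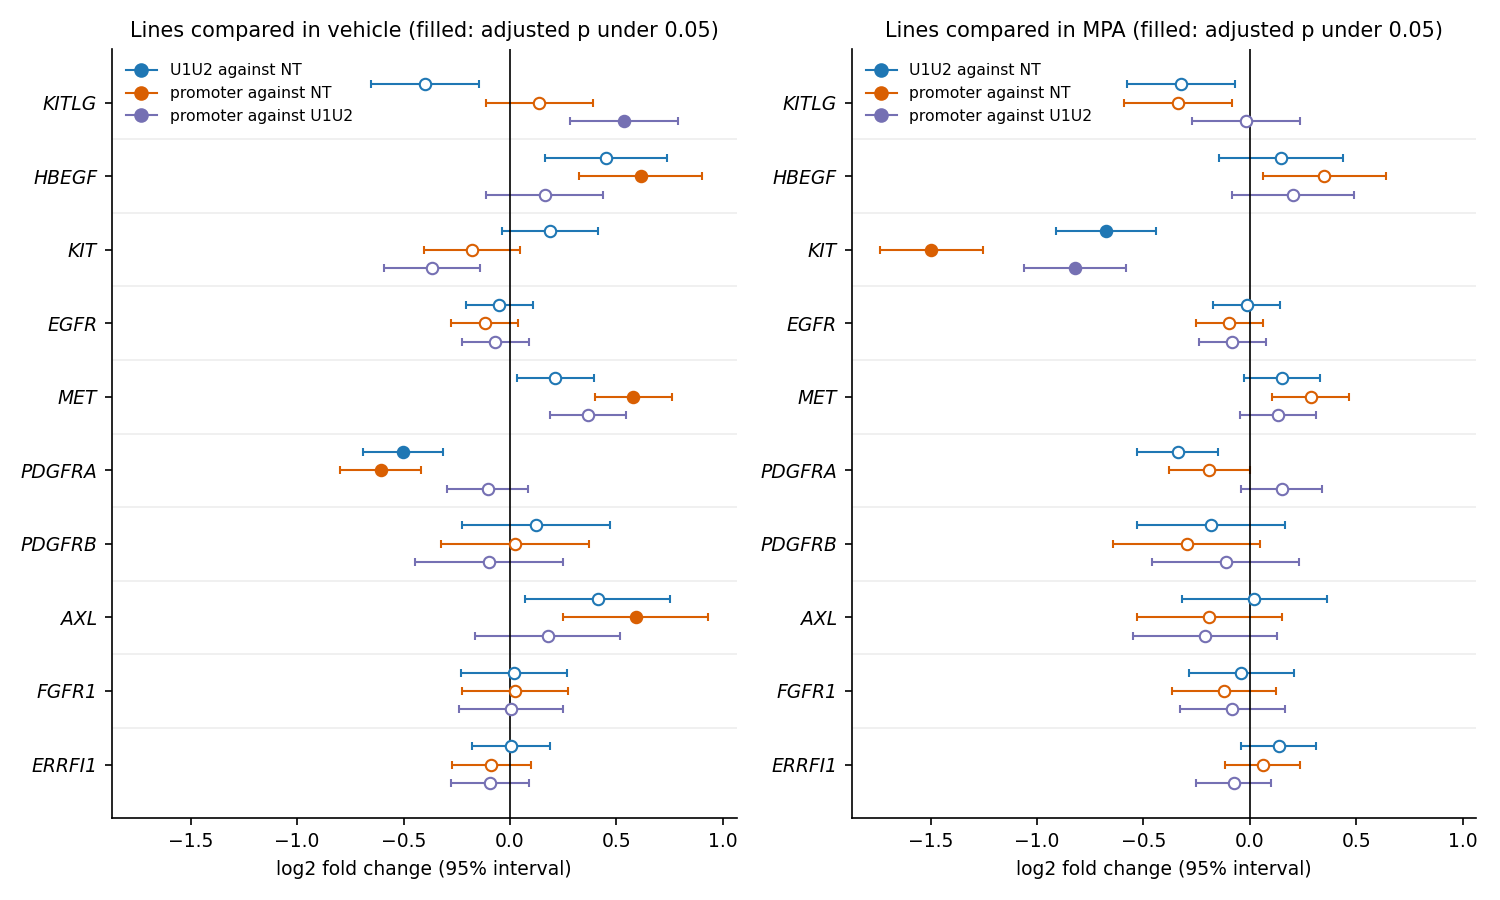
The log2 difference between lines is plotted for each of the 10 genes with its 95% interval, in vehicle (left) and in MPA (right); filled points have an adjusted p under 0.05. In vehicle 4 genes differ between promoter and NT cells by 0.58 to 0.61 in size, and in MPA the filled points are the 3 of KIT, from -0.67 to -1.50.

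The wider pathway was read from 5 lists of other genes, for MPA against vehicle. Beside their counts stand the shares of all tested genes: 2.44% higher and 3.48% lower in NT cells, 5.44% and 6.22% in U1U2 cells, and 6.63% and 8.4% in promoter cells. Beside their medians stand those of all genes, 0.02, 0.03 and -0.00 in the same order. No test compared a list with the other genes. Of 51 other receptor tyrosine kinases 28 could be tested: 1 was higher and 5 lower in NT cells, 3 higher and 5 lower in U1U2 cells, and 5 higher and 5 lower in promoter cells (list medians -0.02, -0.12 and -0.06). ROR1, a WNT5A-binding receptor, went from 8 to 131 reads in NT cells, 15 to 247 in U1U2 cells and 5 to 171 in promoter cells, summed over 3 libraries (log2 fold changes 3.47 ± 0.54, 4.19 ± 0.44 and 5.14 ± 0.55). Its levels with MPA, 1.87 to 3.39 CPM, stayed low. The ephrin receptor EPHA5 fell in all 3 lines (-1.80 ± 0.29, -1.70 ± 0.32 and -2.42 ± 0.33), as did ERBB3, a partner of EGFR that binds neuregulin (-0.97 ± 0.22, -1.17 ± 0.21 and -0.98 ± 0.21). The ERBB3 call in NT cells was lost without NT vehicle replicate 2. TEK, the angiopoietin receptor, fell by 0.54 ± 0.07 in U1U2 cells, from 69.7 ± 4.17 to 47.9 ± 2.70 CPM (adjusted p = 2.25e-05). The promoter and NT responses of TEK differed by -0.43 (adjusted p = 0.0335), a call lost in 18 of 25 alternatives. Between these 2 lines TEK was also called different in vehicle, which enters this difference. Without NT vehicle replicate 1 the count higher in NT cells was 2, without NT vehicle replicate 2 the count lower was 3, and without promoter MPA replicate 2 the count higher in promoter cells was 3.

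Of 17 other ligands of the same receptors 11 could be tested, with 0 higher and 4 lower in NT cells, 3 higher and 3 lower in U1U2 cells, and 4 higher and 4 lower in promoter cells by edgeR's quasi-likelihood test (medians -0.39, -0.02 and -0.25). FGF9 fell most, from 43.1 ± 3.21 to 13.6 ± 2.27 CPM in NT cells (-1.66 ± 0.14), from 37.9 ± 5.82 to 8.22 ± 0.58 in U1U2 cells (-2.20 ± 0.15) and from 30.7 ± 4.82 to 4.50 ± 0.42 in promoter cells (-2.77 ± 0.16). Its promoter response differed from that of NT cells by -1.11 ± 0.21 (adjusted p = 0.00867). In vehicle FGF9 was already lower in promoter than in NT cells, which enters this difference. FGF5 fell in all 3 lines, by 0.77 ± 0.15, 0.56 ± 0.14 and 0.66 ± 0.14, though not in U1U2 cells without U1U2 vehicle replicate 1 or U1U2 MPA replicate 1. HGF, the MET ligand, rose from 192 ± 13.0 to 273 ± 18.6 CPM in U1U2 cells (0.51 ± 0.12, adjusted p = 0.00583) and from 189 ± 22.7 to 275 ± 4.59 in promoter cells (0.54 ± 0.12, adjusted p = 0.00305). In NT cells its value was -0.28 ± 0.12 (adjusted p = 0.218), and the promoter and NT responses differed by 0.82 ± 0.16 (adjusted p = 0.0138, lost without promoter vehicle replicate 1 at 0.0519). AREG, another EGFR ligand, went from 17 to 63 reads in promoter cells, summed over 3 libraries (2.00 ± 0.39, adjusted p = 0.00124). Without NT vehicle replicate 1 the count higher in NT cells was 1, and without U1U2 vehicle replicate 2 the count higher in U1U2 cells was 1. At an unadjusted p under 0.05 the higher count in NT cells was 1, and by DESeq2 it was 0.

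All 22 receptor inhibitors and ERK feedback genes could be tested: 1 was higher and 1 lower in NT cells, 3 higher and 4 lower in U1U2 cells, and 2 higher and 6 lower in promoter cells (medians -0.06, -0.07 and -0.08). SPRY1, a Sprouty inhibitor, rose from 2.39 ± 0.31 to 5.02 ± 0.18 CPM in U1U2 cells (1.07 ± 0.14, adjusted p = 3.73e-05) and from 1.37 ± 0.08 to 5.97 ± 0.62 in promoter cells (2.12 ± 0.15, adjusted p = 1.1e-08). Its value in NT cells was 0.08 ± 0.14 (adjusted p = 0.826), and the promoter and NT responses differed by 2.04 ± 0.21 (adjusted p = 4.07e-05). In vehicle SPRY1 was already lower in promoter than in NT cells, which enters this difference. DUSP5, a nuclear ERK phosphatase, rose in NT (1.17 ± 0.16) and U1U2 cells (0.72 ± 0.16), with 0.40 ± 0.16 in promoter cells (adjusted p = 0.0957). DUSP4, a related phosphatase with 31 to 57 reads in a vehicle group, fell in all 3 lines (-1.88 ± 0.42, -1.58 ± 0.36 and -1.94 ± 0.39). CBLB, a ubiquitin ligase, fell by 0.51 ± 0.07 in U1U2 cells and by 0.40 ± 0.07 in promoter cells. Without U1U2 vehicle replicate 1 the count higher in U1U2 cells was 5, and without U1U2 MPA replicate 2 or 3 the count lower was 2.

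Of 29 adaptors and signal carriers 28 could be tested: 1 was higher in NT, 1 in U1U2 and 3 in promoter cells, where 1 was also lower (medians 0.04, 0.06 and 0.02). PIK3R1, the regulatory subunit of PI3 kinase, rose from 378 ± 34.7 to 518 ± 31.9 CPM in U1U2 cells (0.46 ± 0.09, adjusted p = 0.00209) and from 344 ± 31.6 to 598 ± 7.41 in promoter cells (0.80 ± 0.09, adjusted p = 4.64e-06). The other calls of this list did not hold with every library left out. The count higher in NT cells was 0 on leaving out replicate 2 or 3 of NT vehicle or NT MPA, replicate 3 of U1U2 vehicle, or replicate 1 or 3 of promoter MPA. The count higher in promoter cells was 1 without any promoter library other than promoter vehicle replicate 3. MAP2K1, the only gene lower there, was lost without promoter vehicle replicate 1 or 2 or promoter MPA replicate 3.

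All 18 ERK-induced transcripts could be tested: 1 was higher and 2 lower in NT cells, 3 higher and 0 lower in U1U2 cells, and 2 higher and 1 lower in promoter cells (medians -0.15, 0.01 and -0.19). FOS, an immediate early gene, went from 41 to 211 reads summed over 3 libraries in U1U2 cells (2.61 ± 0.26) and from 42 to 165 in promoter cells (2.10 ± 0.27), with -0.25 ± 0.38 in NT cells (adjusted p = 0.812). The FOS response differed from NT by 2.86 ± 0.48 for U1U2 (adjusted p = 0.0156) and 2.35 ± 0.48 for promoter cells (adjusted p = 0.015). The first was lost without NT vehicle replicate 2 or 3, the second without NT vehicle replicate 2 or promoter vehicle replicate 1. MYC rose in all 3 lines (0.61 ± 0.13, 0.56 ± 0.13 and 0.45 ± 0.13), but not in NT cells without NT vehicle replicate 2, nor in promoter cells without promoter vehicle replicate 1 or 3 or promoter MPA replicate 1 or 2, which leaves 0 and 1 higher. CCND1, which encodes cyclin D1, fell in NT (-0.40 ± 0.07) and promoter cells (-0.61 ± 0.07). Without NT vehicle replicate 1 the counts were 2 higher in NT cells and 3 lower in promoter cells, and the latter was 2 without NT MPA replicate 3, U1U2 MPA replicate 1 or promoter vehicle replicate 3. The count lower in U1U2 cells was also 0 at an unadjusted p under 0.05 and by DESeq2.

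**Figure D5:**
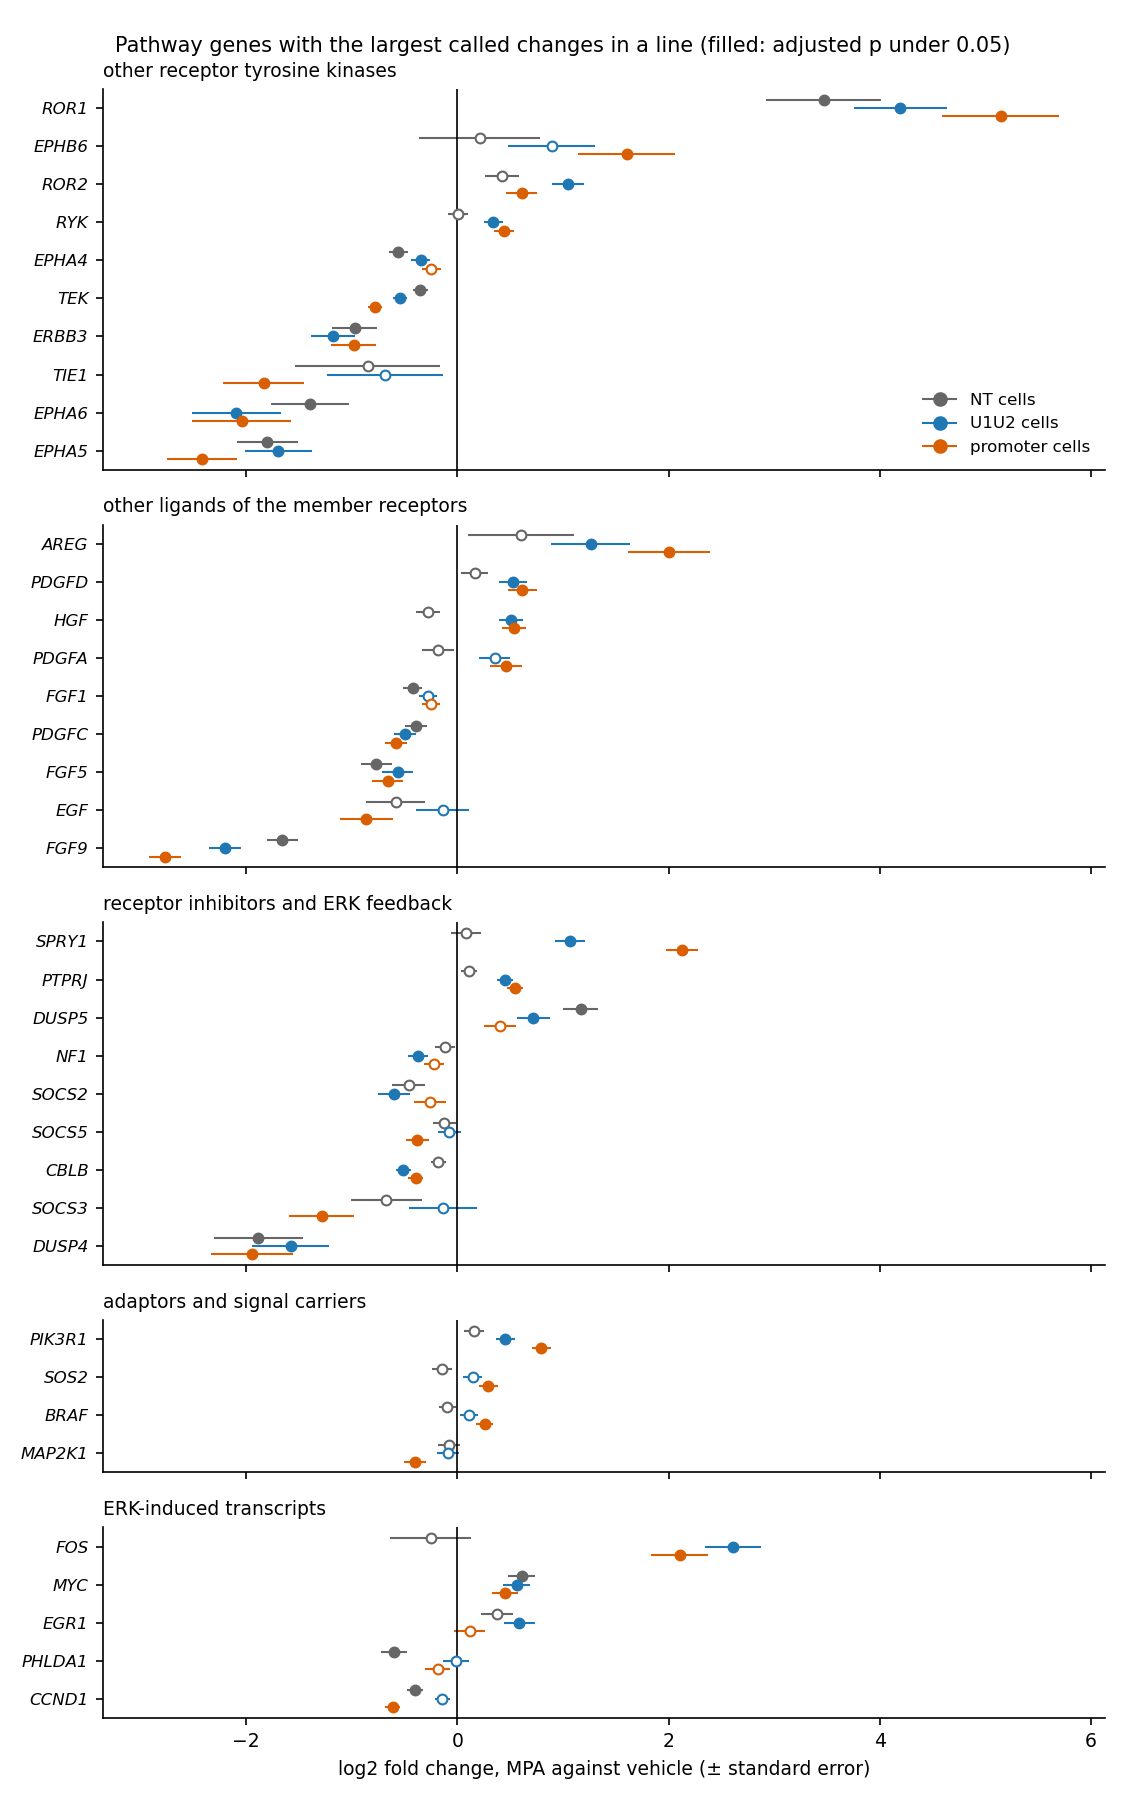
Pathway genes named by the size of their called changes are plotted by list, with the log2 fold change of MPA against vehicle in NT, U1U2 and promoter cells and its standard error; filled points have an adjusted p under 0.05. ROR1 lies at 3.47 to 5.14 in the 3 lines and FGF9 at -1.66 to -2.77, and SPRY1 and FOS lie at 0.08 and -0.25 in NT cells and above 1 in the other lines.

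Among 10973 tested genes that have a symbol and average 1 or more in log2 CPM, the 5 whose log2 CPM followed KIT most closely over the 18 libraries were SBF2-AS1 (Pearson r = 0.992), the imprinted gene MEST (0.991), PLPPR4 (0.986), the interferon-induced IFIT1 (0.985) and WNT2 (0.984). MEST went from 109 to 48.1 CPM in NT cells, from 107 to 27.5 in U1U2 cells and from 97.7 to 20.4 in promoter cells, vehicle to MPA. The 5 closest to ERRFI1 were the prostaglandin receptor gene PTGER2 (0.995), the potassium channel gene KCNK2 (0.992), the protease genes ADAMTS1 (0.992) and CORIN (0.989), and C1orf21 (0.985). PTGER2 went from 3.02 to 21.8 CPM in NT cells, from 2.89 to 30.1 in U1U2 cells and from 2.84 to 30.9 in promoter cells. Within the 10, KIT ran with KITLG (r = 0.71) and against ERRFI1 (-0.91) and MET (-0.76). These correlations describe 18 libraries in 6 groups that share treatments and lines.

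The genes lie on several chromosomes of GRCh38 (GENCODE 29). KIT spans chr4:54657918-54740715 and PDGFRA chr4:54229097-54298247, both on the plus strand, and their log2 CPM had an r of -0.04 over the 18 libraries. KITLG spans chr12:88492793-88580851, HBEGF chr5:140332843-140346631, PDGFRB chr5:150113837-150155872, EGFR chr7:55019021-55211628, MET chr7:116672390-116798386, AXL chr19:41219203-41261766 and ERRFI1 chr1:8004404-8026308. The deposited table has 1 count a gene and library, so the values do not separate a gene's transcripts. In the annotation no other gene shares exon bases with KIT, PDGFRB, MET or HBEGF.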

How the data were processed

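Whole-number read counts per gene were deposited by the authors for 18 libraries, with a second table of log2 CPM that the authors made. Per the submitters' processing notes, STAR 2.6.0c, hg38, R 4.4.1 and edgeR 4.2.2 were used; the counter, its strand setting and the annotation are not given in the sources used here. Values of the authors' log2 table (10402 genes) lay within 5e-09 of those edgeR gives from the counts with a prior count of 2 and entered no test. All libraries carry 1 batch label, so no value could be repeated within batches. Within each group every pair of libraries was farther apart than counting error (chi-square per degree of freedom 1.95 to 34.9), and none was merged.

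The tool was edgeR 4.0.16 (R 4.3.3): filterByExpr with a minimum count of 10 (15558 genes), TMM factors, and a quasi-likelihood fit of all 18 libraries with 1 coefficient for each group, which gave 12 contrasts. P-values were adjusted over all genes by Benjamini-Hochberg, and calls were made under 0.05. Errors are standard errors of log2 fold changes or SDs of 3 libraries, and intervals are 95%. Levels per kilobase use exon lengths of GENCODE 29. The 10 genes and the gene lists were chosen with earlier results of these data known. Of each list, called genes were named by size of change, at most 4 in a direction and contrast. A gene of the adaptor list is counted but not reported here. The script was tested on simulated counts, for MPA against vehicle in NT cells. It called 24 of 100 genes changed by 1.5-fold, 60 of 100 changed by 2-fold and 2 unchanged genes. A change of these sizes that was not called can therefore be real. Alternatives were RLE factors, library size alone, DESeq2 1.42.0, no filter, a filter of CPM 1 in 3 libraries, a fit of only the groups compared, a replicate term, and leaving out each library.

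The replicate numbers showed no steady pairing: deviations of same-numbered libraries correlated between -0.52 and 0.50 over 45 pairs, with 13 above 0.1. Whether some of these libraries shared a culture or preparation was not tested.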

Additional observations from a re-analysis of the deposited data

Results flagged for a closer look

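The MPA response differed between lines, by a test of the difference itself, for 1 of the 10 genes and 6 genes of the pathway lists; all values are differences of log2 fold changes with edgeR's quasi-likelihood test. KIT fell further in both engineered lines than in NT cells, with a difference of -1.32 in promoter minus NT (adjusted p = 0.000191) and -0.86 in U1U2 minus NT (adjusted p = 0.0225). FOS differed by 2.86 in U1U2 minus NT (adjusted p = 0.0156) and by 2.35 in promoter minus NT (adjusted p = 0.015). In promoter minus NT, SPRY1 differed by 2.04 (adjusted p = 4.07e-05), FGF9 by -1.11 (adjusted p = 0.00867), HGF by 0.82 (adjusted p = 0.0138), PIK3R1 by 0.64 (adjusted p = 0.014) and TEK by -0.43 (adjusted p = 0.0335). The NT libraries are shared by all of these differences. Vehicle levels enter them too: SPRY1, PIK3R1 and FGF9 were already lower in promoter than in NT cells in vehicle. TEK was also called different between these lines in vehicle. The vehicle call of FGF9 was lost in 8 of 25 alternatives and that of TEK in 1. Among the 24 alternatives without a replicate term, the KIT call for U1U2 minus NT was lost in 9, with an adjusted p of up to 0.206. Of those 9, 8 left out 1 library. That call was also lost with the replicate term. The FOS difference was lost without NT vehicle replicate 2 or 3 for U1U2 minus NT, and without NT vehicle replicate 2 or promoter vehicle replicate 1 for promoter minus NT. The HGF difference was lost without promoter vehicle replicate 1 (adjusted p = 0.0519). The PIK3R1 difference was lost without NT vehicle replicate 2 or promoter vehicle replicate 1. The TEK difference was lost in 18 of all 25 alternative analyses.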

How the results depend on the processing

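Of 23 changes called among the 10 genes over the 12 contrasts, 16 held in each of 25 alternatives and 7 were lost in at least 1; of 97 that were not called, 10 were called in at least 1, and no called value turned sign. The calls that depend on 1 library stand in the report; the causes of the other changes were not tested. Depth limits HBEGF, ROR1, TIE1, AREG, FOS, DUSP4, EPHA5, ERBB3 and SPRY1, whose reads were few. Summed over the 3 libraries of a group, EPHA5 had 31 to 196 reads and ERBB3 106 to 285. List counts were recomputed for the 3 MPA contrasts, the ones reported; those of the other 9 were not run.

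Without a filter on low counts, other receptor tyrosine kinases in NT cells were 2 higher and 3 lower, other ligands higher in NT cells 1, adaptors higher 2 in NT, 3 in U1U2 and 1 in promoter cells, and ERK-induced transcripts lower in promoter cells 2. Of the 10 genes, 1 was then higher with MPA in promoter cells, 1 higher in U1U2 against NT in vehicle, and 2 lower in the promoter minus NT response. Single members moved with it: PDGFRA with MPA in promoter cells was 0.29 (adjusted p = 0.0873) and lost, while AXL was called with MPA in promoter cells (-0.50), in U1U2 against NT in vehicle (0.46) and in the promoter minus NT response (-0.81). With a CPM of at least 1 in 3 libraries, inhibitors lower in NT cells were 0, ERK-induced transcripts lower in promoter cells 2, and AXL with MPA in promoter cells was called (-0.50).

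With only the groups compared in the fit, counts in NT cells were 0 for adaptors higher, 0 for ERK-induced transcripts higher, 2 for other receptors lower and 2 for other ligands lower. Inhibitors lower in U1U2 cells were 1 and ERK-induced transcripts lower in promoter cells 3. Of the 10 genes, 0 were lower in U1U2 against NT in vehicle, 1 was higher in promoter against NT, 0 higher in promoter against U1U2, 0 lower in U1U2 against NT in MPA and 0 lower in the U1U2 minus NT response. The calls lost were PDGFRA in U1U2 against NT (-0.50), AXL (0.59) and HBEGF (0.61) in promoter against NT, KITLG in promoter against U1U2 (0.54), KIT in U1U2 against NT in MPA (-0.68) and the KIT response, U1U2 minus NT (-0.86). AXL with MPA in promoter cells was gained (-0.50).

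With DESeq2, inhibitors higher in U1U2 cells were 5, and of the 10 genes 1 was higher in U1U2 against NT in vehicle (HBEGF, 0.45), 2 higher in promoter against U1U2 (MET, 0.37, added), 2 lower in U1U2 against NT in MPA (PDGFRA, -0.33, added) and 2 lower in the promoter minus NT response (AXL, -0.77, added). AXL with MPA in promoter cells was -0.48 and called. With library size alone, adaptors in promoter cells were 1 higher and 2 lower and ERK-induced transcripts lower 2. Of the 10 genes, 2 were higher in promoter against U1U2 in vehicle (MET, 0.36, added), 2 lower in U1U2 against NT in MPA (PDGFRA, -0.35, added), 1 higher in promoter against NT in MPA (MET, 0.30) and 1 higher in the promoter minus NT response (PDGFRA, 0.41). AXL with MPA in promoter cells was -0.51 and called. With RLE factors KITLG in promoter against U1U2 (0.53) was lost, which left 0 of the 10 higher. No scaling moved the median of all genes by more than 0.05.

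With the replicate number as a block, KITLG in promoter against U1U2 in vehicle (0.54, adjusted p = 0.10), AXL in promoter against NT (0.59, adjusted p = 0.0683) and the KIT response, U1U2 minus NT (-0.86, adjusted p = 0.0637), were not called. Of the 10 genes, 0 were then higher in promoter against U1U2 and 0 lower in the U1U2 minus NT response, and adaptors higher were 0 in NT and 1 in promoter cells. Calls over all genes went from 178 to 62 in U1U2 against NT in vehicle and from 34 to 12 in the U1U2 minus NT response. The numbers showed no steady pairing within lines: deviations of same-numbered libraries correlated between -0.35 and 0.20, and 4 of 18 libraries correlated best with their own number.

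Leaving out 1 library gave these ranges. With MPA in NT cells, other receptors were 1 to 2 higher and 3 to 5 lower, other ligands 0 to 1 higher, adaptors 0 to 1 higher, ERK-induced transcripts 0 to 2 higher and the 10 genes 1 to 2 lower. In U1U2 cells, other ligands were 1 to 4 higher, and inhibitors 3 to 5 higher and 2 to 5 lower. In promoter cells, the 10 genes were 1 to 2 higher, other receptors 3 to 5 higher, adaptors 1 to 3 higher and 0 to 1 lower, and ERK-induced transcripts 1 to 2 higher and 1 to 3 lower. Between lines in vehicle, the 10 genes were 0 to 2 lower in U1U2 against NT, 1 to 3 higher in promoter against NT and 0 to 2 higher in promoter against U1U2. In MPA they were 1 to 2 lower in U1U2 against NT and 0 to 1 higher in promoter against NT, and in the responses 0 to 1 lower for U1U2 minus NT and 1 to 2 lower for promoter minus NT.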

Other observations

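In vehicle, before any progestin, genes of the pathway lists already differed between promoter and NT cells. Not every called gene of the lists is named here. The Sprouty inhibitor SPRY1 was lower in promoter cells, with a log2 difference of -1.69 ± 0.16 (edgeR's quasi-likelihood test, adjusted p = 1.46e-05). The phosphatase gene DUSP5 was higher by 0.80 ± 0.16 (adjusted p = 0.005). PIK3R1 (log2 difference -0.55 ± 0.09, adjusted p = 0.00124) and PDGFD, a ligand of PDGFRB (-0.97 ± 0.13), were lower. Of the receptors, STYK1 was higher by 1.31 ± 0.18 and TIE1 by 2.26 ± 0.46. Of the ERK-induced transcripts, ETV5 was higher by 0.50 ± 0.09 (adjusted p = 0.00237) and EGR1 by 0.76 ± 0.15 (adjusted p = 0.00525, lost in 1 of 25 alternatives). The vehicle libraries of these lines also enter the MPA contrasts of the same genes, so the values are not independent of those above.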
